A study of Homo sapiens with 8 samples.

Results

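Interferon-stimulated genes were followed in 2 human acute myeloid leukaemia cell lines, NB4 and Kasumi-1, left untreated or given chlorprothixene. The set held 48 genes chosen by name for their known induction by interferon, out of 55765 gene names in the tables, and all 48 were found. NB4 came from a promyelocytic leukaemia with the fusion PML-RARA. The origin of Kasumi-1 was a myeloblastic leukaemia whose fusion is RUNX1-RUNX1T1; each is an established line and thus a model of 1 patient's disease. Chlorprothixene is a thioxanthene antipsychotic. For either line there was 1 library of untreated cells and 1 for each exposure to 40 uM drug, lasting 6, 12 or 24 h. Hence no condition was replicated and all values below are of single libraries. The labels name no interferon treatment for any group, the treated and untreated cells of a line share its fusion, and a vehicle or an untreated culture matched in time is not named in the sources used here, so drug and time in culture cannot be told apart.

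Type I interferons bind the receptor IFNAR1-IFNAR2, whose kinases JAK1 and TYK2 phosphorylate STAT2. It joins IRF9 within the factor ISGF3, which binds the interferon-stimulated response element in the promoters of its targets. The targets sense viral RNA, degrade or sequester it, block virus entry and release, or restrain the signal itself. In myeloid cells many of them are also expressed at some level without added interferon.

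Levels are given in TPM, which scales for transcript length and brings every library to 1000000. A change is log2(TPM + 1) of a treated library minus that of the line's untreated one. Of the 48 genes, 38 averaged 1 TPM or more across the 8 libraries and entered the tests, together with 14612 other genes. The other 10 were OAS2, IFIT5, MX1, GBP1, RSAD2, CMPK2, SLFN5, IFI27, IFI44L and RTP4, none above 2.34 TPM in any library. IFI44L was listed at 0 in all 8. At the edge of this filter, the lowest mean inside it was 1.23 TPM and the highest outside 0.998 TPM (IFI27). A gene near 0 in 1 line could enter only through the other, so counts over the 38 describe these genes and are no support for a difference. Among genes called for the line difference below, MX2, SLFN11 and TRIM22 averaged under 1 TPM in Kasumi-1, and PARP14, OASL, ISG20, SAMD9L, IFI44 and XAF1 in NB4, so their differences are given as a description without p.

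The libraries detected 13358 to 14582 genes at 1 TPM or more. The ratio of coverage to FPKM that most genes of a library shared, which follows its depth, lay between 7.08 and 9.83. Read counts were not used here, so counting error is unknown. Mitochondrially encoded genes took 5.04% to 6.71% of the TPM in NB4 and 7.94% to 17.1% in Kasumi-1, with the highest share in Kasumi-1 at 24 h. The progenitor genes KIT, CD34 and RUNX1T1 summed to 171.7 to 654.1 TPM in Kasumi-1 and at most 0.34 TPM in NB4. The neutrophil elastase gene ELANE, a promyelocytic marker, was at 0.009 to 0.759 TPM in NB4, against 415.5 TPM or more in Kasumi-1, while MPO was at 1528 TPM or more in both lines. The other granule genes were expressed in NB4 too: PRTN3 and AZU1 at 138.0 TPM or more, below their levels in Kasumi-1, and CTSG at 31.0 to 464.3 TPM against 1.98 to 18.96 TPM in Kasumi-1. Of the plasmacytoid dendritic cell markers CLEC4C was listed at 0 in every library and LILRA4 was at or under 0.07 TPM, whereas IL3RA peaked at 10.6 TPM in NB4 and, in Kasumi-1, at 30.5 TPM. The 3 T cell markers summed to 4.35 to 13.1 TPM in NB4 and, in Kasumi-1, to 1.37 to 11.8 TPM, nearly all from CD3D, the 3 B cell markers to 5.23 to 12.2 TPM and 3.25 to 4.45 TPM with MS4A1 listed at 0, and the 3 epithelial markers to 18.4 to 23.5 TPM and 17.5 to 29.7 TPM, mostly EPCAM. The globin genes HBB and HBA1 were listed at 0 throughout. The part of these markers in the results was not tested.

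The 2 untreated lines expressed different interferon-stimulated genes rather than 1 line having more of all of them. Summed over the 48 genes, the level was 1069 TPM in untreated NB4 and 607.8 TPM in untreated Kasumi-1, but the median gene stood at 4.03 TPM in NB4 and, in Kasumi-1, at 4.81 TPM. In NB4 the genes IFITM2, BST2, MX2 and IFITM1 made up 677.8 TPM of the sum. In Kasumi-1 the 4 most abundant were IFI16, IFITM3, IFI6 and STAT2, with 302.2 TPM together. Without each line's 4 most abundant, 391.6 TPM remained in NB4 and 305.7 TPM in Kasumi-1. As these are bulk RNA samples, more cells expressing a gene and more RNA per cell cannot be told apart.

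**Figure D1:**
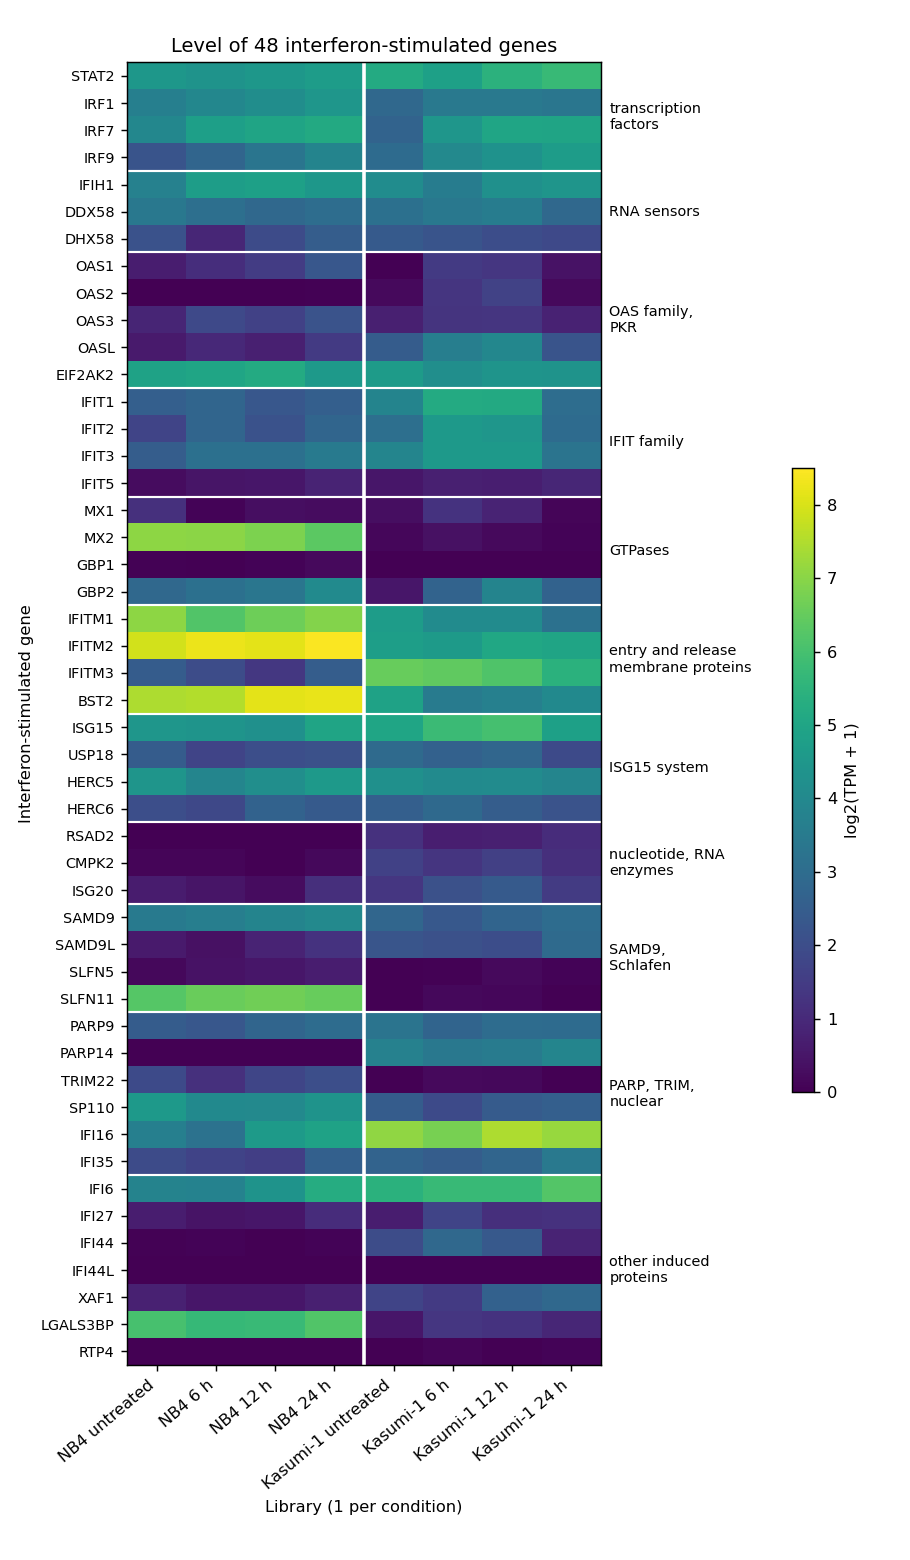
Level of the 48 interferon-stimulated genes, log2(TPM + 1) by colour, with genes in rows grouped by role and the 8 libraries in columns, 1 per condition. MX2, SLFN11 and LGALS3BP are bright in the 4 NB4 columns and dark in Kasumi-1, PARP14 the reverse, and IFIT1, IFIT2 and IFIT3 are brightest in Kasumi-1 at 6 and 12 h.

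In the untreated libraries 10 of the 38 genes were at least 2-fold higher in Kasumi-1 on the log2(TPM + 1) scale, against 16.6% of all genes tested, and 10 were at least 2-fold higher in NB4, against 13.1%. Those higher in Kasumi-1 were PARP14, IFITM3, IFI16, IFI44, OASL, SAMD9L, IFI6, IFIT1, IFIT2 and IFIT3. Those higher in NB4 were MX2, SLFN11, LGALS3BP, IFITM2, IFITM1, BST2, GBP2, SP110, TRIM22 and IRF7. A model with cell line and time, fitted with limma over all genes, tested the line difference across the 4 conditions. It called 16 of the 38 genes higher in Kasumi-1, against 27.8% of all genes, and 11 higher in NB4, against 27.5%. That is 71.1% of these genes and 55.4% of all genes in either direction, so a difference between these lines was common at large. Both counts include genes, named above, that averaged under 1 TPM in 1 line, so they are a description.

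**Figure D2:**
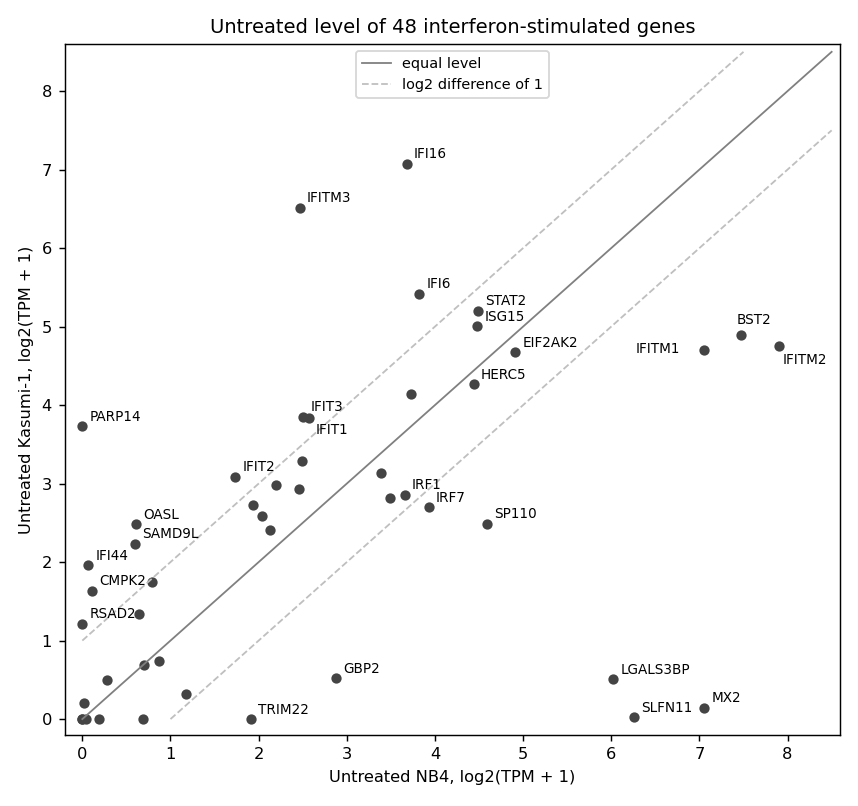
Level of each of the 48 genes in untreated NB4 (x axis) and untreated Kasumi-1 (y axis), both as log2(TPM + 1), 1 library each; the solid line marks equal levels and the dashed lines a log2 difference of 1. MX2, SLFN11 and LGALS3BP lie at the lower right and PARP14, IFITM3 and IFI16 at the upper left, while STAT2, ISG15, EIF2AK2 and HERC5 lie near the line of equal levels.

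MX2, SLFN11 and LGALS3BP had the largest differences, and PARP14 was hardly detected in NB4. MX2, a dynamin-like GTPase that restricts HIV-1 at the nucleus, was at 131.8 TPM in untreated NB4 and at 129.7, 113.5 and 80.4 TPM after 6, 12 and 24 h. In Kasumi-1 it was at 0.105, 0.293, 0.173 and 0.0595 TPM. The NB4 levels lay far above the Kasumi-1 levels at every time, with a log2 difference, Kasumi-1 minus NB4, of -6.61. SLFN11, a Schlafen protein that blocks stalled replication forks, was at 75.6, 93.5, 100.8 and 91.8 TPM in NB4 and at most 0.133 TPM in Kasumi-1 (log2 difference -6.41). LGALS3BP, a secreted galectin-binding glycoprotein, was at 64.0, 50.2, 53.7 and 72.9 TPM in NB4 and at 0.418, 1.52, 1.35 and 0.901 TPM in Kasumi-1 (log2 difference -4.92, SE 0.23, limma adjusted p = 8.02e-06). PARP14, a mono-ADP-ribosyltransferase, had the opposite pattern: it was listed at 0 in the first 3 NB4 libraries and at 0.0108 TPM at 24 h, and was at 12.3, 9.49, 10.6 and 13.5 TPM in Kasumi-1 (log2 difference 3.62).

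The membrane proteins that act on virus entry and release divided between the lines. IFITM1, IFITM2 and IFITM3 block fusion of virus with the cell membrane and endosomes, and BST2 (tetherin) holds budding virus on the cell. IFITM2 was at 238.4, 305.3, 281.2 and 348.9 TPM in NB4 and at 25.9, 23.9, 32.5 and 30.5 TPM in Kasumi-1. IFITM3 was at 4.52, 2.95, 1.63 and 4.67 TPM in NB4 and at 90.6, 84.2, 70.0 and 41.7 TPM in Kasumi-1. The lines thus did not overlap for either gene, and NB4 had the higher IFITM2 and Kasumi-1 the higher IFITM3. IFITM1 was at 131.7, 72.5, 96.7 and 119.4 TPM in NB4 and at 25.1, 16.0, 16.1 and 7.95 TPM in Kasumi-1. BST2 was at 176.0, 182.0, 280.4 and 295.0 TPM in NB4 and at 28.6, 10.5, 11.9 and 15.3 TPM in Kasumi-1. The log2 differences, Kasumi-1 minus NB4, were -3.33 for IFITM2 (SE 0.13), 4.04 for IFITM3 (SE 0.29), -2.68 for IFITM1 (SE 0.26) and -3.80 for BST2 (SE 0.29), each with a limma adjusted p of at most 1.96e-04. The IFITM genes are near-identical copies on chromosome 11, and the deposited span of IFITM2 (307631 to 315272, hg19) contains that of IFITM1 (313506 to 315272), so how reads were divided among them is uncertain.

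Nuclear and cytosolic effectors differed as well. IFI16, a nuclear DNA sensor, was at 11.8, 8.14, 23.6 and 29.1 TPM in NB4 and at 134.0, 107.2, 173.7 and 146.0 TPM in Kasumi-1 (log2 difference 3.02, SE 0.22, limma adjusted p = 4.81e-05). SP110, a nuclear body protein, was at 23.1, 15.3, 15.1 and 19.7 TPM in NB4 and between 2.72 and 4.97 TPM in Kasumi-1 (log2 difference -1.90, SE 0.16, adjusted p = 1.09e-04). TRIM22, a ubiquitin ligase, was at 1.28 to 3.07 TPM in NB4 and at most 0.167 TPM in Kasumi-1. SAMD9, a translation repressor, ranged over 10.2 to 14.8 TPM in NB4, with 4.06 to 7.02 TPM in Kasumi-1, while its paralog SAMD9L was at 0.297 to 1.39 TPM and 3.07 to 6.58 TPM. The log2 difference was -1.01 for SAMD9 (SE 0.17, adjusted p = 0.00211) and 1.55 for SAMD9L, so the paralogs had opposite signs.

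Kasumi-1 also had the higher level of IFI6, IFI35, ISG15 and 3 IFIT genes in this test. IFI44, XAF1, OASL and ISG20 were higher there too, given as a description only because each averaged under 1 TPM in NB4. IFI6, a mitochondrial and endoplasmic reticulum protein, had a log2 difference of 1.46 (SE 0.18, limma adjusted p = 5.4e-04), and OASL, an OAS-like protein without synthetase activity, 2.12. The differences of IFI44, XAF1, IFI35 and ISG20 lay between 0.90 and 1.96. IFIT1, IFIT2 and IFIT3, which bind viral RNA, differed by 1.76 (SE 0.39), 1.42 (SE 0.33) and 0.996 (SE 0.31). ISG15, a ubiquitin-like modifier, differed by 0.87 (SE 0.30, adjusted p = 0.0429), a call lost in limma without the intensity trend (adjusted p = 0.0553). EIF2AK2, which encodes the RNA-dependent kinase PKR, was higher in NB4 by a small amount (log2 difference -0.52, SE 0.16, adjusted p = 0.0308). With TPM rescaled without mitochondrial and the most abundant genes, EIF2AK2 was not called (limma adjusted p = 0.0691). The calls of IFIT3, ISG15, ISG20 and EIF2AK2 were lost when either library at 6 h or at 12 h was left out, those of IFIT3 and ISG15 also without an untreated library, and all 4 without the filter on low values, with adjusted p up to 0.112 for IFIT3, 0.160 for ISG15 and 0.131 for EIF2AK2 over the alternatives.

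Several of these genes sit beside each other on the genome, and some neighbours differed widely in level while others did not. MX2 and MX1, 10913 bases apart on chromosome 21 (hg19), stood at 131.8 and 1.26 TPM in untreated NB4. SLFN5 and SLFN11, 76649 bases apart on chromosome 17, stood there at 0.136 and 75.6 TPM. PARP9, an ADP-ribosyltransferase family member 116040 bases from PARP14 on chromosome 3, was at 4.61 TPM in untreated NB4, where PARP14 was listed at 0. IFITM1 and IFITM3, 4396 bases apart, stood at 131.7 and 4.52 TPM in untreated NB4 and at 25.1 and 90.6 TPM in untreated Kasumi-1. On chromosome 10, IFIT2, IFIT3 and IFIT1 were each higher in untreated Kasumi-1 (7.51, 13.4 and 13.3 TPM) than in untreated NB4 (2.32, 4.67 and 4.92 TPM), so that IFIT3 and IFIT1 were close to each other in level within each line. IFIT5 of the same cluster was at or under 0.872 TPM in all 8 libraries. RSAD2 (viperin) and CMPK2, which overlap on opposite strands of chromosome 2, were at 0.646 to 1.32 TPM and 1.23 to 2.10 TPM in Kasumi-1, and in NB4 CMPK2 was at most 0.126 TPM and RSAD2 listed at 0. OAS1 and OAS3, 6166 bases apart on chromosome 12, stood at 0.617 and 0.831 TPM in untreated NB4, and HERC6 and HERC5, 14004 bases apart on chromosome 4, at 3.10 and 20.7 TPM.

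The changes with chlorprothixene differed with line and time. The median change of the 38 genes was -0.04, 0.19 and 0.49 at 6, 12 and 24 h in NB4. For Kasumi-1 the same medians were 0.19, 0.29 and 0.03. The median of all genes tested lay between -0.08 and 0.01 in the same libraries. At 24 h in NB4, 31 of the 38 stood above their untreated level, against 48.2% of all genes, and 9 by at least 2-fold, against 6.51%. At 12 h in Kasumi-1, 25 stood above it, against 42.7%, and 9 by at least 2-fold, against 4.85%. Summed over the 48 genes, NB4 went from 1069 to 1096, 1237 and 1394 TPM, and Kasumi-1 from 607.8 to 643.1, 771.1 and 622.8 TPM.

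The tests of response called few of them. For the response shared by the lines, limma called 0 of the 38 genes higher, against 0.0273% of all genes, and 0 lower, against 0%; at an unadjusted p under 0.05, 7 were higher (9.30% of all genes) and 0 lower (11.1%). When treated times served as repeats within a line, 0 were called higher in NB4 (0.621% of all genes) and 0 lower (0.177%), and unadjusted p-values under 0.05 numbered 4 (8.30% of all genes) and 0 (6.86%). In Kasumi-1, IRF7 was called higher (0.205% of all genes) and 0 genes lower (0.109%), and unadjusted p-values under 0.05 numbered 4 higher (8.18% of all genes) and 1 lower (12.0%). The difference in response between the lines called 0 higher in Kasumi-1 (0.0410% of all genes) and 0 lower (0.0887%), with 2 (4.22%) and 1 (6.37%) at an unadjusted p under 0.05. The unadjusted counts within a line and for their difference were thus near or under the share of all genes. Counted by size alone, 0 genes were at least 2-fold higher at all 3 times in NB4 (2.03% of all genes) and 0 lower (0.703%). In Kasumi-1, 3 were at least 2-fold higher at all 3 times (1.88% of all genes), namely IRF7, IRF9 and GBP2, and 0 lower (0.655%). Without the Kasumi-1 library at 24 h that count was 7. It then asked for 6 and 12 h only, a looser rule for which no share of all genes is given.

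Of the 4 factors that carry the interferon signal to the genome, IRF7 and IRF9 were among the genes with the largest changes. IRF7, the main amplifier of type I interferon genes (chromosome 11, 612553 to 615999, hg19), stood in NB4 at 14.2 TPM untreated, then at 27.1, 30.0 and 34.8 TPM, and in Kasumi-1 at 5.49 TPM, then at 20.8, 30.8 and 30.2 TPM. All treated libraries were above the untreated one, and the lines, which stood 1.23 apart on the log2 scale when untreated, were at similar levels from 12 h on. IRF7 rose in Kasumi-1 by 2.10 (SE 0.27, limma adjusted p = 0.0360). The call was lost without Kasumi-1 at 12 h (adjusted p = 0.143) and without NB4 at 6, 12 or 24 h (adjusted p = 0.0835, 0.116 and 0.0771), and its p ranged from 0.0282 to 0.143 over 13 alternatives. In NB4 the mean change was 1.05 (SE 0.27, adjusted p = 0.136), and the shared response of 1.58 (SE 0.25) did not pass (adjusted p = 0.0748), nor did the difference in response of 1.05 (SE 0.38, adjusted p = 0.408).

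IRF9, the DNA-binding subunit of ISGF3 (chromosome 14, 24630262 to 24635774), stood in NB4 at 3.57 TPM untreated, then at 5.88, 8.93 and 13.1 TPM, and in Kasumi-1 at 6.91 TPM, then at 15.1, 18.9 and 24.7 TPM. Its level was higher at each later time in both lines, with a shared change of 1.23 (SE 0.17, limma adjusted p = 0.0691). A gene known by a clone name overlaps IRF9 on the same strand and reached 6.13 TPM, so reads may have been divided between them. STAT2, its partner, had no such course: it was at 21.5, 19.4, 21.9 and 25.04 TPM in NB4 and at 35.8, 27.7, 43.6 and 51.9 TPM in Kasumi-1. IRF1, a factor induced mainly by interferon gamma, stood in NB4 at 11.6 TPM untreated, then at 14.4, 16.8 and 21.3 TPM, and in Kasumi-1 at 6.26 TPM, then at 9.89, 9.91 and 9.07 TPM, with mean changes of 0.54 and 0.55 (shared adjusted p = 0.177). STAT2 and IRF9 were higher in Kasumi-1 over all conditions (log2 differences 0.80, SE 0.14, and 0.97, SE 0.15) and IRF1 in NB4 (-0.79, SE 0.16).

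**Figure D3:**
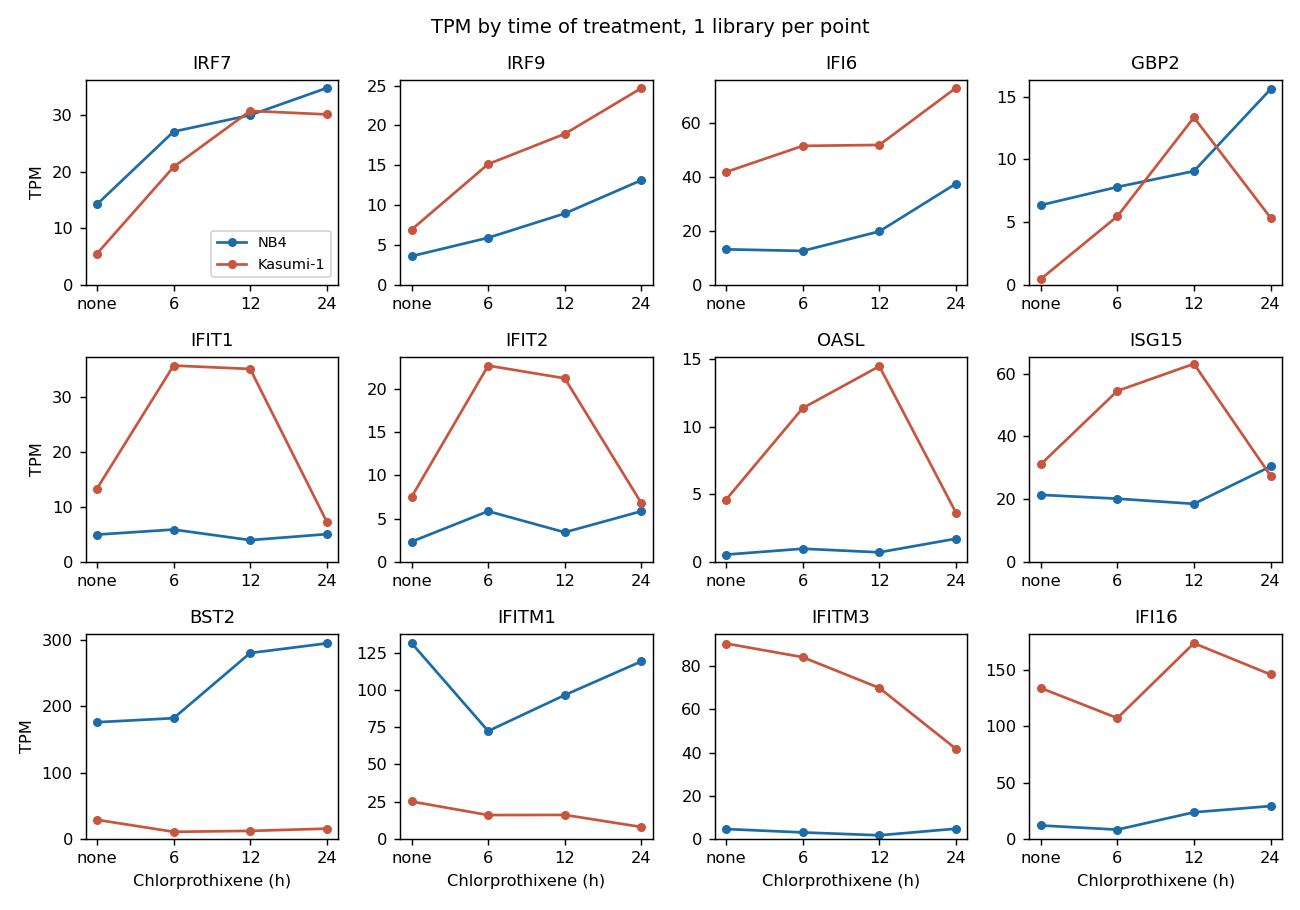
TPM of 12 named genes in untreated cells ("none") and after 6, 12 and 24 h with chlorprothixene, spaced as categories, in NB4 (blue) and Kasumi-1 (red), each point being 1 library. IRF7 and IRF9 stand higher at every treated time in both lines, the Kasumi-1 curves of IFIT1, IFIT2, OASL and ISG15 peak at 6 or 12 h, and BST2 lies above its untreated level in NB4 and below it in Kasumi-1.

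Several antiviral effectors stood high in Kasumi-1 at 6 and 12 h and low again at 24 h. IFIT1 went from 13.3 to 35.6 and 35.03 TPM and then to 7.26 TPM, and IFIT2 from 7.51 to 22.7, 21.3 and 6.79 TPM. Both ended below their untreated level. IFIT3 went from 13.4 to 22.8, 23.2 and 8.63 TPM. OASL went from 4.60 to 11.4, 14.5 and 3.63 TPM, and ISG15 from 31.1 to 54.5, 63.1 and 27.5 TPM. ISG20, an RNA exonuclease, went from 1.52 to 3.31, 4.29 and 1.79 TPM, and OAS1, whose product 2-5A activates RNase L, was listed at 0 untreated and at 1.74, 1.55 and 0.343 TPM after treatment. OAS2, under the filter, had the same course (0.154, 1.49, 2.18 and 0.157 TPM). None of these changes passed the limma test of the mean response in Kasumi-1, which averages the 3 times.

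A count made after these values were seen used a looser rule, in which the 24 h level need not return to the untreated one. At least 0.5 higher on the log2 scale at 6 and 12 h, and at least 0.5 lower at 24 h than at 12 h, were 9 of the 38 genes in Kasumi-1 (OAS1, OAS3, OASL, IFIT1, IFIT2, IFIT3, GBP2, ISG15 and ISG20), or 23.7%, against 3.34% of all genes. In NB4 it was 0 of the 38, against 1.24%. At 24 h in Kasumi-1, GBP2 was still 2.14 above its untreated level and OAS1 0.43 above, while IFIT1 was 0.79 below. From 12 to 24 h in Kasumi-1 the median change of the 38 genes was -0.17, against 0.01 for all genes, and 7 were at least 2-fold lower, against 1.81%. The low 24 h values rest on 1 library, the one with a mitochondrial share of 17.1%; with TPM rescaled without mitochondrial and the most abundant genes the count was again 9. IFIT1, IFIT2 and IFIT3 lie within the span of LIPA, a lysosomal lipase gene on the opposite strand, and strand-specific counting is not stated. LIPA was at 30.8, 42.1, 34.4 and 33.8 TPM in Kasumi-1, whereas NB4 had 36.7, 43.3, 52.2 and 64.5 TPM.

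In NB4 the highest levels came late. Of the 38 genes, 26 (68.4%) stood highest in the 24 h library, against 25.9% of all genes, and 6 in the untreated one (15.8% against 33.9%). In Kasumi-1 the highest library was untreated for 8 (36.8% of all genes), 6 h for 9 (26.5%), 12 h for 11 (13.6%) and 24 h for 10 (23.1%). From 12 to 24 h, 33 of the 38 were higher in NB4 (44.8% of all genes), with a median change of 0.31. These NB4 counts rest on the 24 h library alone and carry no test. IFI6 stood in NB4 at 13.1 TPM untreated, then at 12.5, 19.8 and 37.5 TPM, and in Kasumi-1 at 41.8 TPM, then at 51.5, 51.9 and 73.1 TPM, highest at 24 h in both. OAS1 stood in NB4 at 0.617, 1.17, 1.88 and 3.98 TPM, and OAS3 went from 0.831 to 2.69, 2.16 and 3.56 TPM. IFIT3 went from 4.67 to 7.80, 7.89 and 10.4 TPM and IFIT2 from 2.32 to 5.85, 3.41 and 5.85 TPM, while IFIT1 stayed between 3.92 and 5.84 TPM.

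**Figure D4:**
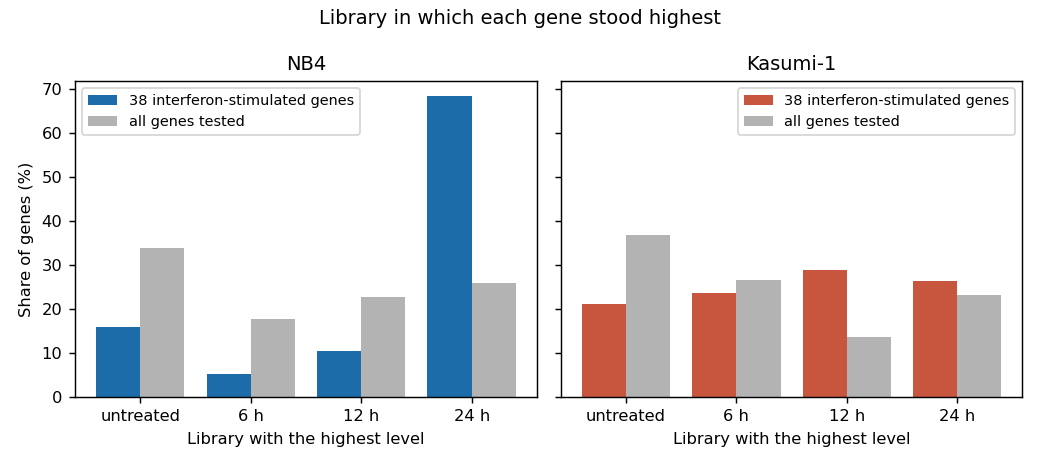
Share of genes (y axis, percent) whose level was highest in the untreated, 6 h, 12 h or 24 h library (x axis), for the 38 interferon-stimulated genes tested (coloured bars) and for all genes tested (grey bars), in NB4 and Kasumi-1. In NB4 68.4% of the interferon-stimulated genes stood highest at 24 h, against 25.9% of all genes, and in Kasumi-1 28.9% stood highest at 12 h, against 13.6%.

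The genes with a common course in Kasumi-1 and the membrane protein genes that split the lines can be set beside their promoters. A RefSeq promoter (GRCh38.p14, 250 bases before to 50 after the start) was matched for 37 of the 48 genes. The letters GAAA, any 2 bases and GAAA again, the core of the interferon-stimulated response element, were searched on both strands (on the other strand TTTC, any 2 bases and TTTC), overlaps included. They were in 22 of the 37 (59.5%), against 3.57% of 35116 promoters in all; the genes were named for this regulation, so the share describes them. Of the 9 genes with the course counted above, 6 had a promoter, and 5 of the 6 held the letters, as did 11 of the other 23 tested. The 9 were picked by their values in these same single libraries. These counts thus describe the genes and do not link the letters to the course. The stretches below show them before the start, 5′ to 3′ on the gene's strand, in lower case with each match in capitals; another match of OAS3, farther before the start, and another of IFITM1, not wholly before it, are not shown. IFIT1, IFIT3, ISG15, ISG20 and OAS3 stand for the genes high at 6 and 12 h in Kasumi-1, and IFITM1, IFITM3 and BST2 for those that separate the lines.
IFIT1 (chr10:89392482-89392554, + strand): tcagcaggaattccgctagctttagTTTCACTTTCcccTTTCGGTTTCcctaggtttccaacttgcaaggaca
IFIT3 (chr10:89327816-89327909, + strand): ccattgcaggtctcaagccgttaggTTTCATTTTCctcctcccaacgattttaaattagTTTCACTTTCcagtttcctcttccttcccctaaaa
ISG15 (chr1:1013359-1013424, + strand): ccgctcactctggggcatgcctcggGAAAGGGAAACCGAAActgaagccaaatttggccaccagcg
ISG20 (chr15:88638922-88638981, + strand): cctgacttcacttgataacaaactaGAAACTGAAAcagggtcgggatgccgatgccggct
OAS3 (chr12:112938437-112938473, + strand): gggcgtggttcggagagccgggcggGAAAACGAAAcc
IFITM1 (chr11:313975-314034, + strand): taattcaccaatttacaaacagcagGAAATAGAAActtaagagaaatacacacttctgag
IFITM3 (chr11:320861-320937, - strand): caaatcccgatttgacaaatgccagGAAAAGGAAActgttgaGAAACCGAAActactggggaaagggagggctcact
BST2 (chr19:17405720-17405785, - strand): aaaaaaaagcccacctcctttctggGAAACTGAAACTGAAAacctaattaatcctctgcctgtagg
The letters thus stand before genes whose courses differed in Kasumi-1. There ISG15 was above its untreated level at 6 and 12 h, and BST2 below its own at every treated time. In NB4 both were highest at 24 h. In the matched windows of OAS1, IRF1, IRF9, STAT2 and SLFN11 they were absent. A match is a description of the sequence and shows no binding.

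The RNA sensors and the genes of the ISG15 system had no common course. IFIH1, which encodes the long-RNA sensor MDA5, went from 12.2 to 25.5, 27.5 and 21.8 TPM in NB4, while in Kasumi-1 it was at 16.6, 10.96, 18.2 and 20.6 TPM. Its mean change in NB4 was 0.97 (SE 0.33, limma adjusted p = 0.238). DDX58, which encodes the sensor RIG-I, stayed between 6.38 and 10.8 TPM in all 8 libraries. DHX58, their relative LGP2, stood in untreated NB4 at 3.38 TPM, at 6 h at 0.864 TPM and at 24 h at 4.63 TPM. USP18, which removes ISG15 and restrains the receptor, was at 4.50, 2.35, 3.09 and 3.28 TPM in NB4 and at 6.62, 5.17, 6.01 and 2.73 TPM in Kasumi-1, below the untreated level in all 6 treated libraries. The ISG15 ligase HERC5 ranged over 13.5 to 23.1 TPM in NB4, with 13.6 to 18.2 TPM in Kasumi-1, and HERC6 was at 2.55 to 6.55 TPM over all 8 libraries. ISG15 itself was at 21.3, 20.1, 18.5 and 30.4 TPM in NB4.

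Among the remaining abundant genes, BST2 stood on opposite sides of its untreated level in the lines. It was 0.49 higher over the treated times in NB4 and 1.14 lower in Kasumi-1, a response difference of -1.63 (SE 0.43, limma adjusted p = 0.308). Every treated NB4 library lay above the untreated 176.0 TPM and every treated Kasumi-1 library below the untreated 28.6 TPM. GBP2, a guanylate-binding protein, stood in NB4 at 6.34 TPM untreated, then at 7.79, 9.06 and 15.6 TPM, and in Kasumi-1 at 0.438 TPM, then at 5.45, 13.3 and 5.35 TPM, with mean changes of 0.63 and 2.54 (SE 0.53 in Kasumi-1, adjusted p = 0.0840). IFITM1 stood below its untreated level at all 3 times in both lines, with mean changes of -0.48 and -0.93. IFITM3 in Kasumi-1 had a lower value at each later time, 41.7 TPM at 24 h against 90.6 TPM untreated. EIF2AK2 was at 29.0, 31.3, 36.0 and 22.6 TPM in NB4 and at 24.5, 17.5, 19.9 and 19.5 TPM in Kasumi-1. None of these passed a test of response.

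The less abundant genes showed further courses of their own. XAF1, a pro-apoptotic factor, was at 2.37, 1.73, 5.20 and 6.24 TPM in Kasumi-1 and did not exceed 0.725 TPM in NB4. IFI44 was at 2.89, 6.30, 4.20 and 0.806 TPM in Kasumi-1 and at most 0.0521 TPM in NB4. IFI35 was at 2.84, 2.30, 1.99 and 5.03 TPM in NB4 and at 5.59, 4.73, 5.83 and 9.75 TPM in Kasumi-1, highest at 24 h in both. In all 4 conditions XAF1 and IFI44 were thus higher in Kasumi-1. PARP9 lay between 3.90 and 8.74 TPM throughout. The gene DTX3L overlaps PARP9 on the opposite strand and was at 9.79 to 16.0 TPM over the 8 libraries. Under the filter, MX1 was at 1.26 TPM in untreated NB4 and at most 0.257 TPM there after treatment, while in Kasumi-1 it was at 0.253, 1.38, 0.817 and 0.0934 TPM. IFI27 was at 0.369 to 2.34 TPM over all libraries, SLFN5 at most 0.621 TPM, GBP1 at most 0.161 TPM and RTP4 at most 0.0950 TPM.

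A gene's untreated level and its response can be set side by side, though the untreated library enters both and a low value there raises the change. In Kasumi-1, the 14 of the 38 genes under 5 TPM untreated had a median change of 0.27 (0.14 for all genes at that level), the 15 genes at 5 to 20 TPM 0.14 (-0.04), and the 9 genes at 20 TPM or more 0.06 (-0.17). In NB4 the medians were 0.03 for the 19 genes under 5 TPM (0.09 for all genes), 0.59 for the 8 genes at 5 to 20 TPM (0.00), and 0.02 for the 11 at 20 TPM or more (-0.07). In NB4 6 of the 8 genes of middle level were at least 0.5 higher, against 15.1% of all genes at that level, and 0 of the 11 most abundant (7.04%). Some genes that set the lines apart stayed apart. MX2, SLFN11 and LGALS3BP remained at or under 1.52 TPM in every Kasumi-1 library. PARP14 remained at or under 0.0108 TPM in every NB4 library. Others did not: GBP2, higher in untreated NB4, was at 13.3 TPM in Kasumi-1 and 9.06 TPM in NB4 at 12 h. IFIT3, higher in untreated Kasumi-1, was at 8.63 TPM there and 10.4 TPM in NB4 at 24 h. GBP2 and IRF7, lower in untreated Kasumi-1 by 2.35 and 1.23 on the log2 scale, had there the largest mean changes of the genes that reached 5 TPM.

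Other genes of the pathway, listed by role, give the setting. The 9 interferon genes listed did not exceed 0.461 TPM (IFNA1, NB4 at 24 h), and IFNB1 was at most 0.198 TPM in NB4 and, in Kasumi-1, 0.269 TPM. Of 46 pathway genes, 30 were tested; limma called 2 higher in NB4 and 0 lower, against 0.621% and 0.177% of all genes, and 0 in Kasumi-1 and 0 for the shared response. At an unadjusted p under 0.05, 7 were higher and 2 lower for the shared response (9.30% and 11.1% of all genes), 6 and 0 in NB4 (8.30% and 6.86%), and 2 and 3 in Kasumi-1 (8.18% and 12.0%). The line difference called JAK1, STAT3, IRF5, MYD88, TICAM1, SOCS3, ADAR and TREX1 higher in Kasumi-1, 8 genes against 27.8% of all genes. It called IFNGR2, TYK2, IRF3, IRF8, IKBKE, TLR9, SOCS1 and SAMHD1 higher in NB4, 8 genes against 27.5%, so both shares were close to those of all genes; IRF8, TLR9 and SOCS1 averaged under 1 TPM in Kasumi-1. The cytokine signalling inhibitor SOCS3 was at 0.282, 3.24, 2.88 and 2.48 TPM in NB4 and at 10.5, 21.7, 15.6 and 11.2 TPM in Kasumi-1. Its relative SOCS1 was at 1.44, 2.68, 4.65 and 3.57 TPM in NB4 and at 0.253, 0.444, 1.32 and 1.05 TPM in Kasumi-1. Both stood above the untreated level in all 6 treated libraries, with shared changes of 1.06 (SE 0.28, limma adjusted p = 0.124) and 0.75 (SE 0.20, adjusted p = 0.126) that did not pass. IFNGR2, a chain of the interferon gamma receptor, rose in NB4 from 63.8 to 149.6, 165.3 and 192.0 TPM (mean change 1.38, SE 0.20, adjusted p = 0.0323) and was at 47.96, 66.2, 52.3 and 58.2 TPM in Kasumi-1. MB21D1, which encodes the DNA sensor cGAS, rose in NB4 from 27.2 to 59.1, 58.5 and 58.4 TPM (mean change 1.08, SE 0.15, adjusted p = 0.0302), and stood in Kasumi-1 at 52.4 TPM untreated and at 36.9, 37.6 and 34.6 TPM treated (response difference -1.59, SE 0.22, adjusted p = 0.0607). TMEM173, which encodes STING, stood in Kasumi-1 at 35.5 TPM untreated and at 93.6, 76.1 and 73.0 TPM treated (adjusted p = 0.0882) and was at 62.9 to 95.1 TPM in NB4. PTPN6, which encodes the phosphatase SHP-1, stood in Kasumi-1 at 52.2 TPM untreated and at 258.0, 210.8 and 106.6 TPM treated (adjusted p = 0.0982). IL10RB, a receptor chain of interferon lambda, was at 21.4 TPM in untreated Kasumi-1 and at 51.5 TPM there at 24 h. IFNLR1, also a chain of that receptor, was listed at 0 in all 8 libraries. The kinase TYK2 was at 182.0 TPM in untreated NB4 and 321.7 TPM at 24 h, and in Kasumi-1 at 114.2 and 173.1 TPM. IRF2, a factor that competes with IRF1, ranged over 19.8 to 32.0 TPM in NB4, with 28.9 to 40.5 TPM in Kasumi-1, and SAMHD1, a dNTP hydrolase, was at 16.7 TPM in untreated Kasumi-1 against 8.70 TPM at 6 h. The factor IRF5 ranged over 1.77 to 4.07 TPM in NB4, with 12.5 to 45.0 TPM in Kasumi-1, and the kinase gene IKBKE at 64.9 to 109.8 TPM and 11.2 to 20.2 TPM; both differed between the lines (log2 differences 2.97, SE 0.26, and -2.43, SE 0.24).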

How the data were processed

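RNA of 8 samples was sequenced; titles gave each sample its line and time. HISAT2, StringTie and the build hg19 are named per the submitters' processing notes, while their options and the gene annotation were not stated there. The deposited TPM values sum to 1000000 in each library, the deposited FPKM values are scaled for length and depth, and the deposited coverage is a signal, used only to look at depth. Values of a gene name were summed. The 14650 genes averaging 1 TPM or more were tested as log2(TPM + 1), a scale that understates folds at low levels.

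Tests used limma 3.58.1 in R 4.3.3 with a variance trend on intensity; tests were two-sided and called at an adjusted p (Benjamini-Hochberg, all genes tested) under 0.05. The shared response (mean of 3 times minus untreated) and the line difference came from line + time (3 residual degrees of freedom). For the shared response, the error term is the disagreement between the lines over the conditions. For the line difference, p reflects how steady the gap between the lines was over the 4 conditions, each a single library per line. Neither p-value measures variation between repeat cultures of a line. Responses within a line and their difference came from line x treated (4 residual degrees of freedom), with the times as repeats and the lone untreated library assumed to vary like them. On simulated data only the test of the shared response was tried, with the same change set in both lines at all 3 times. The line difference, the responses within a line and their difference were not tried in this way. The genes, their role groups and the lists were chosen with earlier results of these data known. The rule for genes given in full named those past a test, the 8 with the largest untreated difference and the 8 with the largest mean change in each line (5 TPM or more), those 2-fold changed at all 3 times, and the transcription factors; others named were chosen after their values were seen. Alternatives were a pseudocount of 0.1, no filter, a mean of at least 5 TPM, FPKM, TPM rescaled after removing mitochondrial genes and each library's top 10 genes, no intensity trend, times as repeats, and each library left out. Other software was Python 3.11.15 with pandas 2.3.3, numpy 2.4.6 and, for plots, matplotlib 3.10.9.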

Additional observations from a re-analysis of the deposited data

Results flagged for a closer look

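BST2 stood above its untreated level at all 3 times in NB4, at 6 h by only 0.05 on the log2 scale, and below it at all 3 times in Kasumi-1, with a response difference, Kasumi-1 minus NB4, of -1.63. No response of BST2 passed a test, nor did the interaction (limma adjusted p = 0.308), and the 3 treated libraries of a line share 1 untreated library.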

How the results depend on the processing

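With a mean of at least 5 TPM, which left 26 of the genes to test, those higher in Kasumi-1 in the line difference numbered 10, those highest at 24 h in NB4 17, and those high at 6 and 12 h and lower again at 24 h in Kasumi-1 5; the last 2 counts and their alternatives were chosen after seeing the data. With the treated times as repeats the shared response called 1 gene higher (IRF7, limma adjusted p = 0.0403). With a pseudocount of 0.1, 1 gene was at least 2-fold higher at all 3 times in NB4. Leaving out 1 library, the genes called higher in Kasumi-1 for its response numbered 0 to 1, those at least 2-fold higher at the remaining times 1 to 2 in NB4 and 3 to 7 in Kasumi-1, and those lower in Kasumi-1 0 to 1. The share of all genes under each of these alternatives is not given here. The counts therefore show only how they depend on the processing. Without an untreated library the response of that line could not be fitted. In the single-gene results none of the alternatives run changed a direction. No paired analysis was possible by replicate number because the labels give none; the line difference does compare the lines within each time, through the time term. Without read counts, values near 0 have no known counting error.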
